A study of Homo sapiens with 8 samples.

Results

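The genes described here are 10 genes of arginine synthesis, arginine transport and polyamine metabolism, out of 20719 gene IDs counted in ribosome profiling libraries of G401 cells. G401 is an established line from a rhabdoid tumor of the kidney, a tumor type defined by loss of SMARCB1, a core subunit of the SWI/SNF chromatin remodeling complex. The set holds ASS1, ASL, ARG2, SLC7A1, SLC7A2, OAT, ODC1, AMD1, SRM and SMOX, and it was chosen from measured values, because footprints on ASS1 were higher after SMARCB1 re-expression. The comparison of SMARCB1 cells with and without doxycycline is therefore given for these genes as a description with no test. All 10 genes passed the filter on low counts, as did 11097 genes in all.

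Cells carried a doxycycline-inducible (Tet-On) SMARCB1 or, as the control line, a doxycycline-inducible GFP. Each line received 0.1 µg/ml doxycycline (Dox) or an equivalent of DMSO for 12 h, which made 4 groups of 2 libraries: SMARCB1 Dox, SMARCB1 DMSO, GFP Dox and GFP DMSO. Plates of a condition were pooled before ribosomes were captured, and whether either line is 1 clone is not given in the sources used here. Whether the libraries of a group came from separate cultures is not given either, so p-values measure only the spread between these libraries. A footprint is the stretch of mRNA that a ribosome covers, and footprint counts rise with both the amount of an mRNA and the number of ribosomes on it. RNA-seq was not analysed here, so the values are ribosome occupancy and not translation efficiency.

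Arginine is made from citrulline in 2 steps. ASS1, argininosuccinate synthase, joins citrulline to aspartate, and ASL, argininosuccinate lyase, splits the product into arginine and fumarate. Many tumors express little ASS1 and then depend on arginine taken up through cationic amino acid transporters, of which SLC7A1 (CAT1) and SLC7A2 (CAT2) are members. ARG2, the mitochondrial arginase, cuts arginine into urea and ornithine. Ornithine goes through OAT, ornithine aminotransferase, toward glutamate and proline, or through ODC1, ornithine decarboxylase, to putrescine. AMD1, adenosylmethionine decarboxylase, supplies the aminopropyl groups with which SRM, spermidine synthase, and SMS, spermine synthase, build the longer polyamines. SMOX, spermine oxidase, turns spermine back into spermidine.

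The libraries held 5924443 to 14000039 footprints on genes. The labels held for the induced gene: SMARCB1 had 2553 and 1750 footprints in the SMARCB1 Dox libraries and 0 in the other 6, and a count of 0 allows up to 3. Markers of the line were present in every library, with VIM at 1212 to 3384 counts per 1000000 (CPM, on scaled library totals), KRT8 at 1227 to 2870 CPM and KRT18 at 745.8 to 1930 CPM. Of 8 markers of other cell types, PTPRC, ALB, GFAP and CD3E had 0 counts in all 8 libraries. PECAM1, HBB, EPCAM and COL2A1 reached at most 3, 1, 11 and 15 counts. Reads without a unique alignment were 25.6% to 39.7% of a library, except in GFP Dox replicate 1, where they were 56.4%.

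The coding sequence of ASS1 bears on what its counts can hold. ASS1 lies at chr9:130444961-130501274 on the plus strand (GRCh38) and has 1236 coding bases in 14 coding exons. Of its 1209 windows of 28 bases, a length close to a ribosome footprint, 667 (55.2%) occurred at least once more in the genome, at 14 loci that are all annotated ASS1 pseudogenes. ASS1P3 held 193 of these windows and ASS1P9 held 186. A read that aligned equally well to ASS1 and to a pseudogene was not counted for either, so ASS1 counts come mainly from the rest of the coding sequence. The lengths of the footprints were not analysed here, and the ASS1 share was 65.3% with windows of 24 bases and 45.6% with windows of 32. The 28-base window with the most copies was found at 8 other places. The longest stretch without a copy of a 28-base window ran over coding bases 267 to 419, which hold 126 windows.

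AMD1 and OAT shared this property in part, with 30.9% and 25.5% of their windows found elsewhere. In ASL, ARG2, ODC1 and SRM the share was 0.341% to 1.45%, and in SLC7A1, SLC7A2 and SMOX it was 0. With windows of 24 and 32 bases the share was 39.8% and 25.5% for AMD1, and 31.6% and 20.8% for OAT. In GFP Dox replicate 1, the library with the most reads that had no unique alignment, OAT had its highest value and AMD1 its lowest, and the part of such reads in these values was not tested.

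**Figure D1:**
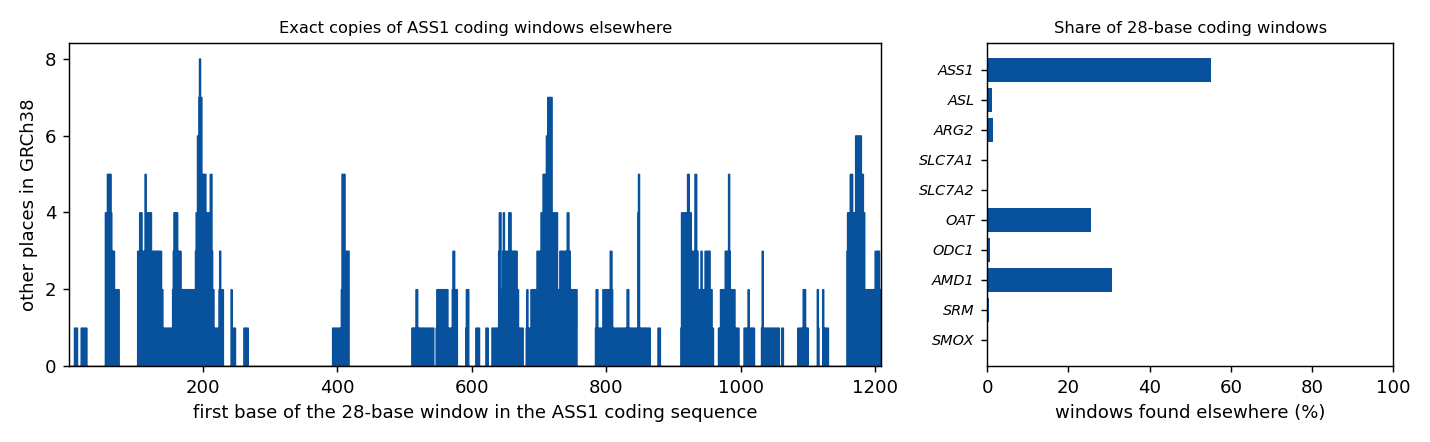
Left, the number of other places in GRCh38 at which each 28-base window of the ASS1 coding sequence occurs (y axis), by the first base of the window (x axis). Right, the percentage of 28-base coding windows of each gene found elsewhere, with ASS1 at 55.2%, AMD1 at 30.9% and OAT at 25.5%.

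ASS1 footprints were higher in SMARCB1 Dox than in any other group. ASS1 counts were 58 and 121 in SMARCB1 DMSO, 435 and 311 in SMARCB1 Dox, 161 and 203 in GFP DMSO, and 104 and 128 in GFP Dox. Scaled to library size, ASS1 stood at 9.67 and 9.43 CPM in SMARCB1 DMSO and at 36.4 and 49.3 CPM in SMARCB1 Dox. The GFP line lay between them, with 13.2 and 14.1 CPM in DMSO and 17.2 and 18.9 CPM in Dox. The 4 groups did not overlap in any pair, in the order SMARCB1 Dox, GFP Dox, GFP DMSO, SMARCB1 DMSO. The fitted change of ASS1 with Dox was 2.16 ± 0.29 on the log2 scale in the SMARCB1 line (SE, 2 libraries against 2), or 4.48-fold. In bulk samples, fewer cells of a type and less RNA per cell cannot be told apart. Leaving out any 1 library gave ASS1 changes of 1.93 to 2.37 on the log2 scale.

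The control line received the same Dox, which induced GFP in place of SMARCB1. Its libraries are not part of the contrast on which ASS1 was chosen. ASS1 was higher by 0.40 ± 0.28 on the log2 scale in GFP Dox than in GFP DMSO, or 1.32-fold, with both Dox libraries above both DMSO libraries. The difference did not pass the test over all genes (edgeR's quasi-likelihood test, adjusted p = 1). The change with Dox was larger in the SMARCB1 line than in the GFP line by 1.76 ± 0.40 for ASS1, a value that contains the comparison the gene was chosen on. Of the 11097 genes tested, 0 passed an adjusted p of 0.05 and a 2-fold change for this difference between the lines.

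**Figure D2:**
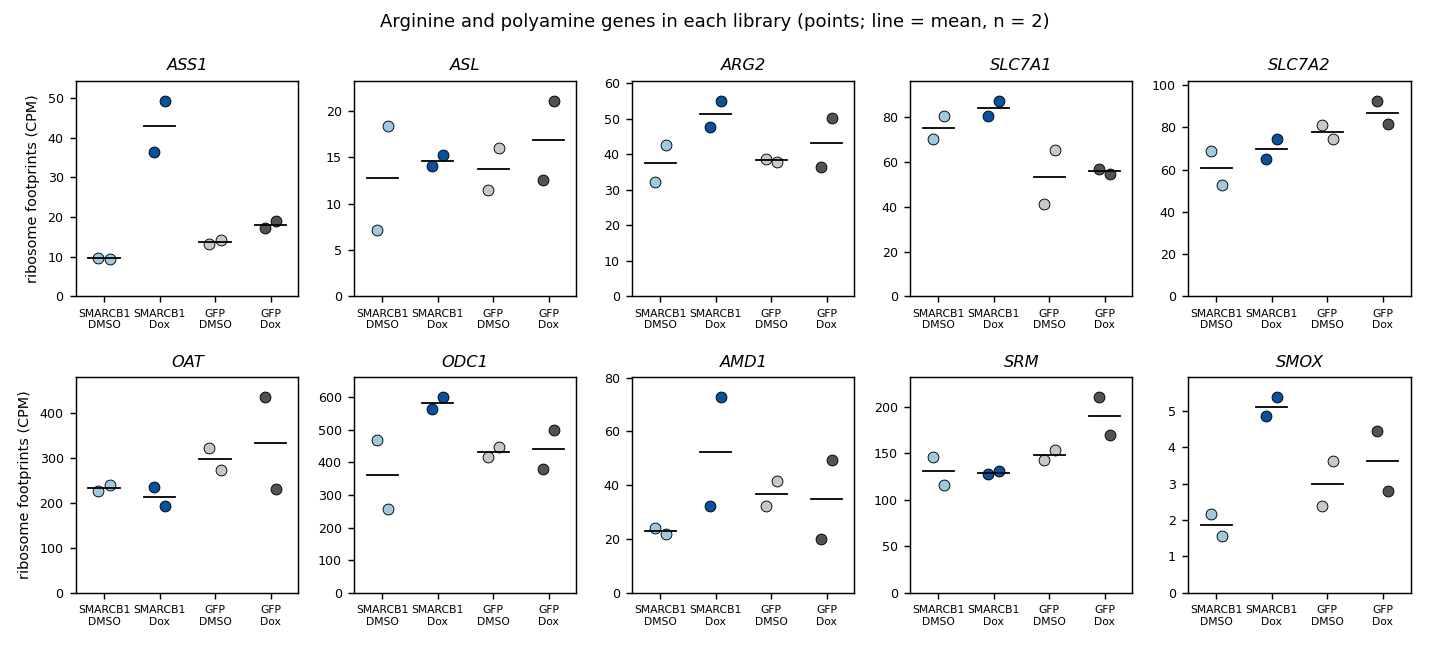
Footprints on each of the 10 genes in CPM (y axis, from 0) in the 4 groups (x axis), with 1 point per library and a line at the mean of 2 libraries. ASS1 lies at 36.4 and 49.3 CPM in SMARCB1 Dox and between 9.43 and 18.9 CPM in the other 6 libraries.

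ASL, the enzyme of the next step, showed no order of the groups. ASL stood at 7.17 and 18.4 CPM in SMARCB1 DMSO and at 14.1 and 15.2 CPM in SMARCB1 Dox, so that the SMARCB1 Dox libraries lay between the DMSO libraries. In the GFP line, ASL was at 11.5 and 16.1 CPM in DMSO and at 12.6 and 21.2 CPM in Dox. All 4 groups overlapped. The fitted change of ASL with Dox was 0.16 ± 0.42 for SMARCB1 cells and 0.29 ± 0.41 for GFP cells. The SMARCB1 value was -0.33 without SMARCB1 DMSO replicate 1 and 1.03 without replicate 2.

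For both transporters the fitted differences between the lines were larger in size than those with Dox, and none of those tested passed. SLC7A1, the main carrier of arginine into most cells, was at 70.4 and 80.56 CPM in SMARCB1 DMSO and at 80.57 and 87.5 CPM in SMARCB1 Dox. In the GFP line SLC7A1 was at 41.3 and 65.3 CPM in DMSO and at 57.1 and 54.6 CPM in Dox, so all 4 libraries of the SMARCB1 line were above all 4 of the GFP line. SLC7A1 was higher in the SMARCB1 line by 0.50 ± 0.25 under DMSO (adjusted p = 0.426) and by 0.59 ± 0.26 under Dox (adjusted p = 0.228), and neither difference passed the test. With Dox, SLC7A1 was at 0.15 ± 0.25 in SMARCB1 cells and at 0.07 ± 0.26 in GFP cells. SLC7A2, the second carrier, lay the other way between the lines. It was at 52.8 to 74.4 CPM in the SMARCB1 line and at 74.7 to 92.7 CPM in the GFP line. SLC7A2 differed by -0.36 ± 0.23 under DMSO (adjusted p = 0.586) and by -0.32 ± 0.24 under Dox (adjusted p = 0.512), and with Dox by 0.20 ± 0.24 in SMARCB1 cells and 0.16 ± 0.23 in GFP cells.

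ARG2 and OAT act on arginine and ornithine in mitochondria. ARG2 was at 32.2 and 42.8 CPM in SMARCB1 DMSO and at 47.6 and 55.2 CPM in SMARCB1 Dox, a fitted difference of 0.45 ± 0.26 with groups that did not overlap. In the GFP line ARG2 was at 38.8 and 37.8 CPM in DMSO and at 36.4 and 50.1 CPM in Dox, which overlapped. OAT stood at 227 and 239 CPM in SMARCB1 DMSO, at 235 and 193 CPM in SMARCB1 Dox, at 322 and 273 CPM in GFP DMSO and at 436 and 230 CPM in GFP Dox. The OAT difference between SMARCB1 Dox and GFP Dox was -0.64 ± 0.29 (adjusted p = 0.247), the lowest of the 10 genes in that comparison. The GFP Dox libraries lie far apart: the OAT difference was -0.11 (adjusted p = 0.903) without GFP Dox replicate 1, the library with the most reads that had no unique alignment, and -1.02 (adjusted p = 0.0112) without replicate 2.

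The polyamine enzymes varied among themselves. ODC1, the first and tightly regulated enzyme of the pathway, was at 469 and 257 CPM in SMARCB1 DMSO and at 566 and 601 CPM in SMARCB1 Dox. Both Dox libraries were above both DMSO libraries, with a fitted difference of 0.69 ± 0.29, which was 1.18 without SMARCB1 DMSO replicate 1 and 0.32 without replicate 2. In the GFP line ODC1 was at 417 and 447 CPM in DMSO and at 380 and 501 CPM in Dox, which overlapped. AMD1 was at 24.0 and 22.0 CPM in SMARCB1 DMSO and at 32.2 and 72.8 CPM in SMARCB1 Dox. The AMD1 difference of 1.18 ± 0.42 came mostly from 1 library: it was 0.49 without SMARCB1 Dox replicate 2 and 1.66 without replicate 1. AMD1 also varied in the GFP line, at 32.3 and 41.3 CPM in DMSO and at 20.02 and 49.4 CPM in Dox.

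SRM, which makes spermidine, overlapped between Dox and DMSO in the SMARCB1 line. Its values were 146 and 116 CPM in SMARCB1 DMSO, 127 and 131 CPM in SMARCB1 Dox, 143 and 153 CPM in GFP DMSO, and 210 and 170 CPM in GFP Dox. The fitted SRM difference with Dox was -0.02 ± 0.23 in SMARCB1 cells and 0.36 ± 0.23 in GFP cells. SMOX, the lowest of the 10 genes, was at 2.17 and 1.56 CPM in SMARCB1 DMSO and at 4.85 and 5.39 CPM in SMARCB1 Dox, from 13 to 58 counts. SMOX was at 2.39 and 3.61 CPM in GFP DMSO and at 4.47 and 2.81 CPM in GFP Dox. Its fitted difference with Dox was 1.48 ± 0.57 in SMARCB1 cells and 0.27 ± 0.55 in GFP cells.

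Counted over the 10 genes, 8 had a fitted value above 0 in SMARCB1 Dox against SMARCB1 DMSO, with a median of 0.32 on the log2 scale against -0.02 over all genes tested. These values include ASS1 and come from the comparison that chose the set, so they are a description and no test. Both Dox libraries were above both DMSO libraries in 6 (ASS1, ARG2, SLC7A1, ODC1, AMD1 and SMOX), and in none were both below. Of all genes tested, 35.6% had groups that did not overlap, with 1918 of the 11097 genes higher and 2033 lower. For SLC7A1 the gap between the groups was 80.56 against 80.57 CPM. Of all genes tested, 0.018% were past an adjusted p of 0.05 and a 2-fold change. ASS1 is among them, which restates how the set was chosen and is no test of it.

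In GFP Dox against GFP DMSO, 0 of the 10 genes passed the same limits in edgeR, as did 0% of all genes, and their adjusted p was 1. DESeq2 also called 0 of the 10. At an unadjusted p under 0.05 were 240 of the 11097 genes. 9 of the 10 had a value above 0, with a median of 0.17 against 0.02 over all genes. The fitted values of the 9 genes other than ASS1 ran from -0.08 for AMD1 to 0.36 for SRM, and 3 of the 10 did not overlap between the groups (26.3% of all genes). With these libraries, differences of this size could not be told from the spread.

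**Figure D3:**
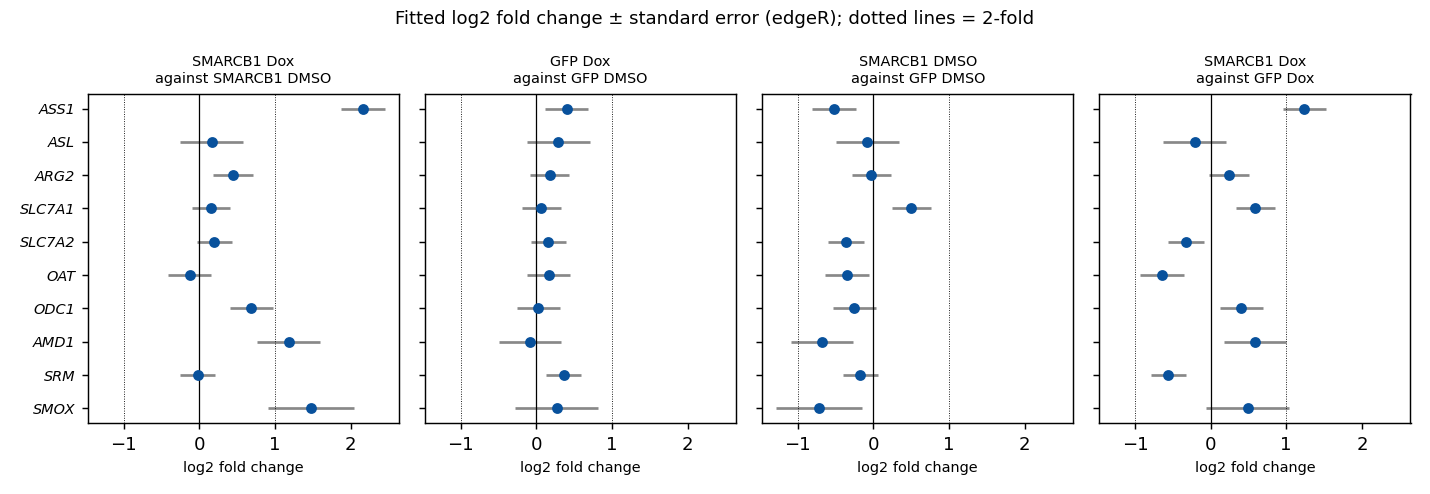
Fitted log2 fold changes (x axis) of the 10 genes (y axis) in the 4 comparisons, with bars for ± 1 standard error and dotted lines at a 2-fold change. In SMARCB1 Dox against SMARCB1 DMSO, ASS1 lies at 2.16, SMOX at 1.48 and AMD1 at 1.18, and in GFP Dox against GFP DMSO every gene lies between -0.08 and 0.40.

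The lines were compared with each other under DMSO, before induction, and under Dox. These 2 comparisons share no library with each other, but each shares libraries with the comparison that chose the genes, so ASS1 is described only. Under DMSO, ASS1 was lower in the SMARCB1 line, at -0.52 ± 0.29, and under Dox it was higher, at 1.24 ± 0.28 (2.36-fold). Under DMSO, 9 of the 10 genes had a value below 0, with a median of -0.30 against 0.02 over all genes, and SLC7A1 was the exception. None of the 9 tested genes passed in edgeR (adjusted p 0.426 to 0.984) or in DESeq2, while 4.97% of all genes passed in edgeR. At an unadjusted p under 0.05 were 0 of these 9, beside 1546 of the 11097 genes tested. Groups did not overlap for 6 of the 10 (5 lower, 1 higher), beside 44.8% of all genes.

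Under Dox, 6 of the 10 genes were above 0 and the median was 0.33. The 9 genes other than ASS1 lay between -0.64 for OAT and 0.59 for SLC7A1, with adjusted p of 0.203 to 0.841, and none passed in edgeR or in DESeq2. At an unadjusted p under 0.05 were 3 of these 9, SLC7A1, OAT and SRM, beside 2074 of the 11097 genes tested. At the adjusted limits, 6.08% of all genes passed. In 6 of the 10 the groups did not overlap (4 higher, 2 lower), beside 46.1% of all genes.

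The other genes of the pathway were taken from 7 lists of 80 genes in all, of which 67 passed the filter: arginine synthesis and the urea cycle, arginine transport and sensing, ornithine to proline and glutamate, polyamines, other uses of arginine, aspartate, and regulators of ASS1. With Dox, none of the 67 passed in either line. DESeq2 also called 0 in both. At an unadjusted p under 0.05 were 5 among SMARCB1 cells and 1 among GFP cells, beside 552 and 240 of the 11097 genes tested. The medians were 0.09 and 0.03. Between the lines, 1 was higher and 3 were lower under DMSO (5.97% of the 67), and 1 was higher and 4 were lower under Dox (7.46%), near the shares over all genes. DESeq2 called 1 higher and 4 lower under DMSO, and 2 higher and 5 lower under Dox. The share of all genes called by DESeq2 is not given here, so these counts stand without a background.

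SMS, which makes spermine from spermidine, was higher in the SMARCB1 line with or without Dox. SMS was at 990 and 732 CPM in SMARCB1 DMSO and at 1067 and 901 CPM in SMARCB1 Dox, and at 290 and 215 CPM in GFP DMSO and 197 and 235 CPM in GFP Dox. The libraries of the lines did not overlap. The SMS difference was 1.77 ± 0.27 under DMSO (adjusted p = 0.000675) and 2.19 ± 0.27 under Dox (adjusted p = 0.000119). SLC18B1, a vesicular polyamine transporter, went the other way from low counts, at 2.06 to 5.52 CPM in SMARCB1 cells and 9.52 to 13.8 CPM in GFP cells. Its difference was -2.01 ± 0.48 under DMSO (adjusted p = 0.0208) and -1.62 ± 0.47 under Dox (adjusted p = 0.0543). The call under DMSO was lost without any 1 of the 4 DMSO libraries (adjusted p 0.0515 to 0.233). Among the 16 tested genes of the polyamine list, these were the calls under DMSO, and SMS was the call under Dox.

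CPS1, which starts the urea cycle by making carbamoyl phosphate in mitochondria, was lower in the SMARCB1 line. CPS1 was at 4.36 to 9.99 CPM in the 4 libraries of the SMARCB1 line and at 38.3 to 48.8 CPM in the 4 of the GFP line. Its difference was -2.68 ± 0.37 under DMSO (adjusted p = 0.000284) and -2.39 ± 0.36 under Dox (adjusted p = 0.00072). CPS1 was the single call among the 5 tested genes of its list. SLC25A15, the mitochondrial ornithine carrier, was at -0.60 ± 0.30 under DMSO (adjusted p = 0.41) and at -0.88 ± 0.30 under Dox (adjusted p = 0.109).

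BHLHE40, a transcriptional repressor listed with the regulators of ASS1, was lower in the SMARCB1 line, at 13.4 to 26.8 CPM against 109 to 134 CPM in the GFP line. The BHLHE40 difference was -2.87 ± 0.27 under DMSO (adjusted p = 7.84e-06) and -2.27 ± 0.27 under Dox (adjusted p = 6.48e-05). Under DMSO both BHLHE40 and ASS1 were lower in the SMARCB1 line, and under Dox BHLHE40 was lower and ASS1 higher. Whether BHLHE40 acts on ASS1 in these cells was not tested. With Dox in the SMARCB1 line, BHLHE40 had a value of 0.60 ± 0.27 and ATF4, a stress-response factor for amino acid genes, had 0.68 ± 0.29. Neither passed the test (adjusted p = 0.971 and 0.925). ATF4 was at 269 and 161 CPM in SMARCB1 DMSO and at 314 and 376 CPM in SMARCB1 Dox.

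**Figure D4:**
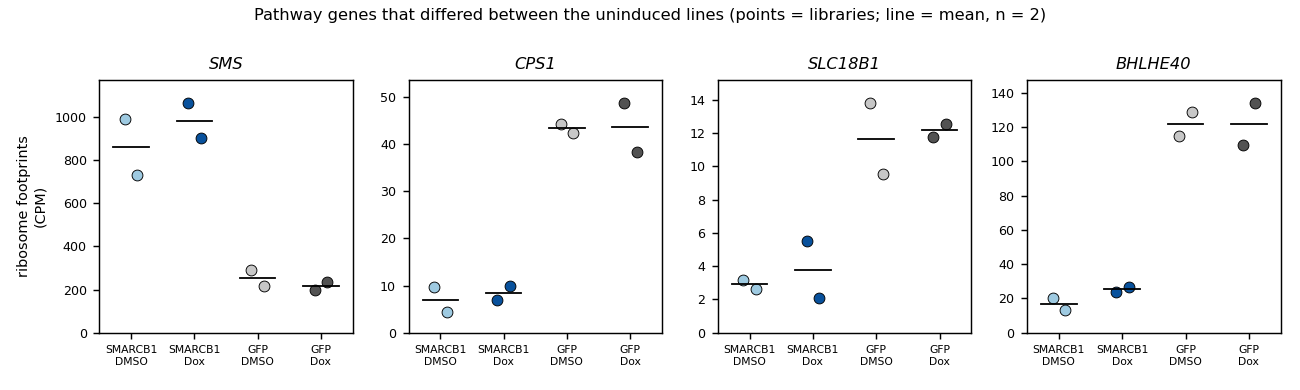
Footprints in CPM (y axis, from 0) on SMS, CPS1, SLC18B1 and BHLHE40, the pathway genes that passed the test between the uninduced lines, in the 4 groups (x axis), with 1 point per library and a line at the mean of 2. SMS lies at 732 to 1067 CPM in the SMARCB1 line and at 197 to 290 CPM in the GFP line, and the other 3 are lower in the SMARCB1 line in every library.

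Of the other lists, the arginine methyltransferase PRMT3 was lower in SMARCB1 Dox than in GFP Dox, at -1.01 ± 0.26 (adjusted p = 0.0319). ADSS1, which uses aspartate to make a precursor of AMP, was also lower, at -2.16 ± 0.60 (adjusted p = 0.0455). Each of these calls held in 7 of 16 alternative settings. For ADSS1 1 library set the size: it was at 14.06 CPM in GFP Dox replicate 1 and 3.99 CPM in replicate 2, and without replicate 1 the difference was -0.99 (adjusted p = 0.475). OAZ1, the antizyme that targets ODC1 for degradation, was at 131 and 110 CPM in SMARCB1 DMSO and at 177 and 204 CPM in SMARCB1 Dox. Its difference of 0.66 ± 0.24 did not pass (adjusted p = 0.765). AZIN1, the next largest change of the polyamine list in that comparison, was at 0.55 ± 0.34 with groups that overlapped, and did not pass.

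Levels were compared between genes per kilobase of coding sequence, as the mean over 8 libraries. The length was the union of the coding sequences of all annotated transcripts of a gene. For AMD1 it was 1398 bases, against 1002 in the transcript used for the windows, and for SLC7A2 2231 against 1974. The order of AMD1, SLC7A1 and SLC7A2 depends on this choice of length. ODC1 was the highest at 329 CPM per kb, at the 96.3rd percentile of the genes tested, followed by OAT at 205 and SRM at 129 CPM per kb. ARG2, SLC7A1, SLC7A2 and AMD1 stood at 40.1, 35.6, 33.1 and 26.3 CPM per kb. ASS1 was at 17.0 CPM per kb, close to the median of 17.2 over all genes tested, and ASL at 10.4 and SMOX at 1.94 CPM per kb were lower. Among neighbours in this order, only SRM and ARG2, and ASL and SMOX, did not overlap over the 8 libraries. This order pools groups in which ASS1 differs. By group, ASS1 was at 7.73 CPM per kb in SMARCB1 DMSO, 11.1 in GFP DMSO, 14.6 in GFP Dox and 34.7 in SMARCB1 Dox. By these group means ASL, at 9.18 CPM per kb, was above ASS1 in SMARCB1 DMSO, and SLC7A2, at 31.2 CPM per kb, was below it in SMARCB1 Dox. In both pairs the values of single libraries overlapped. Per kilobase of sequence without a copy elsewhere, an alternative chosen after seeing the data, ASS1 was at 38.0 CPM per kb and ranked 6 of the 10 in place of 8.

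The genes whose footprints followed ASS1 most closely over the 8 libraries were KIF1A (Pearson r = 0.966), TRIM62 (0.952), HES4 (0.931), KSR1 (0.93) and FMNL3 (0.926), among 6033 genes whose log2 CPM spanned over 1. By Spearman's rho, TRIM62 was at 0.976 and FMNL3 at 0.952, among the nearest genes by that measure too, while KIF1A was at 0.905 and HES4 and KSR1 were at 0.714. TRIM62, at 0.935 to 3.17 CPM, and HES4, at 1.16 to 3.65 CPM, had low levels. KIF1A, KSR1 and FMNL3 lay at 7.3 to 35.2 CPM. The points share group and library, so the correlations are a description. Within the set, the r with ASS1 was 0.86 for SMOX, 0.771 for ARG2, 0.747 for ODC1 and 0.677 for AMD1, and lower for SLC7A1 (0.384), ASL (0.272) and SLC7A2 (0.197). SRM and OAT had r of -0.0944 and -0.324.

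The 10 genes lie on 10 chromosomes and do not neighbour each other. Their GC content ran from 41.1% in AMD1 to 63.2% in SRM, beside a median of 52.1% over the genes tested. Arginine codons made up 2.86% of the codons of SLC7A1, 4.85% of those of ASS1 (20 of 412) and 6.67% of those of SMOX.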

How the data were processed

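Ribosome-bound RNA of G401 cells was captured with the RiboLace kit and sequenced. Per the paper's methods, the authors aligned reads with STAR and counted them on coding sequences of GENCODE 42 with HTSeq in intersection-strict mode. The submitters' processing notes name hg38. The deposited values are raw counts per gene. The strand option and the handling of adapters and duplicates are not given in the sources used here. Whether reads carried molecular identifiers is not given either, so limits cover counting error only.

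Symbols, positions and coding sequences come from GENCODE 44 on GRCh38, and 311 of 20719 IDs had no symbol. HTSeq's 5 summary rows were left out. In edgeR 4.0.16 (R 4.3.3), genes were filtered by group, scaled by TMM and fitted by quasi-likelihood over 8 libraries with 1 term per group. Each SE is the size of the fitted change divided by the square root of its test statistic (F). It rests on a spread estimated over all 8 libraries with information shared across genes. P-values were adjusted by Benjamini-Hochberg over 11097 genes, and a call needed an adjusted p under 0.05 and a change over 2-fold. The fit was tested on simulated data. CPM were computed on TMM-scaled totals. Windows were matched exactly to GRCh38, both strands. Replicates differed beyond sampling noise (chi-square per degree of freedom 14.5 to 45.5). Members and gene lists were chosen with earlier results of these data known. All members, the calls of each list or else up to 2 largest changes, and the 5 genes most like ASS1 could be named. DESeq2 1.42.0 was an alternative. The window sequences are not reported here.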

Additional observations from a re-analysis of the deposited data

How the results depend on the processing

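ASS1 was chosen on SMARCB1 Dox against SMARCB1 DMSO, so counts of the 10 genes past the limits there show how the value varies and are no test. That count, 1 as fitted (ASS1), was 2 without a filter on low counts (ASS1 and AMD1) and 0 to 1 with 1 library left out, with 0 without any 1 of the 4 libraries of the SMARCB1 line. In SMARCB1 Dox against GFP Dox, where ASS1 is likewise only described, it was 1 as fitted and 0 to 3, with 0 without GFP Dox replicate 1 or SMARCB1 Dox replicate 2, and 3 without GFP Dox replicate 2 (ASS1, OAT and AMD1 at 1.38). With 1 library left out, 1 group holds 1 library, assumed to vary like the others. Fitted with a replicate block the counts were 1, 0, 0 and 1 in the 4 comparisons, as without it. The labels do not say that a replicate number is shared, and the correlations of same-numbered deviations were 0.0454 to 0.28. With scaling by library size only, GFP Dox against GFP DMSO gave SLC7A1 at -0.025 and ODC1 at -0.039, and the median of all genes moved from -0.02 to 0.09 in SMARCB1 Dox against SMARCB1 DMSO and from -0.01 to 0.11 in SMARCB1 Dox against GFP Dox. Small changes turned sign with 1 library left out. In GFP Dox against GFP DMSO the log2 ranges were -0.14 to 0.61 for ASL, -0.078 to 0.39 for ARG2, -0.23 to 0.43 for SLC7A1, -0.37 to 0.55 for OAT, -0.19 to 0.21 for ODC1, -0.88 to 0.42 for AMD1 and -0.10 to 0.60 for SMOX. In SMARCB1 DMSO against GFP DMSO they were -0.94 to 0.42 for ASL, -0.25 to 0.16 for ARG2 and -0.75 to 0.12 for ODC1, and in SMARCB1 Dox against GFP Dox -0.53 to 0.22 for ASL and -0.11 to 1.38 for AMD1. The cause was not tested. The fit to only the groups compared could not give a difference of the Dox effects. SMS, CPS1 and BHLHE40 passed between the lines in 16 of 16 settings, and SLC18B1 under DMSO in 12.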

Other observations

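Several enzymes and carriers of the same pathways had almost no footprints in these cells. Of the urea cycle, ARG1, the cytosolic arginase of liver, had 0 counts in all 8 libraries, OTC and NAGS had 1 count each, and SLC25A2, a second ornithine carrier, had 6. The transporter SLC7A3, the proline oxidase homolog PRODH2, the neuronal nitric oxide synthase NOS1, AGMAT, ASPG and the glutamate carrier SLC1A2 also had 0 counts. PAOX, which oxidizes acetylated polyamines, had 61 counts over all libraries and OAZ3 had 50. These genes did not pass the filter on low counts, and a count of 0 in a library allows up to 3. Reads without a unique alignment were not counted, and copies of the coding sequences of these genes elsewhere in the genome were not examined.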
